A study of Homo sapiens with 4 samples.

Results

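A set of 9 genes of the smooth muscle actin and contractile program were followed in irradiated and untreated U-2 OS cells. They were chosen by symbol: the actins ACTA2 and ACTG2, the thin-filament proteins TAGLN, CNN1, TPM1, TPM2 and CALD1, the myosin light chain MYL9, and RND3. All 9 were among the 36601 genes listed in each of the 4 libraries. U-2 OS, an established cell line from a human osteosarcoma, keeps wild-type p53. The IR cells received 4 Gy of ionizing radiation and the UT cells none. There were 2 experiments, with 1 IR and 1 UT library in each. The series design gives 48 h between irradiation and sorting, as do the study's methods, whereas the treatment protocol gives 24 h. Apart from irradiation the labels name no difference between the groups, and a single cell line limits both.

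Contraction in smooth muscle and in stress fibres of other cells is driven by myosin II pulling on actin filaments, and is switched on when the regulatory light chain is phosphorylated by myosin light chain kinase or by the kinases ROCK1 and ROCK2. Tropomyosins, calponin, caldesmon and transgelin bind the actin filament and tune its stability and its access to myosin. Many of these genes are targets of serum response factor (SRF), which binds CArG boxes together with myocardin in smooth muscle or with the actin-sensing MRTF proteins in other cells. ACTA2 and TAGLN are also widely used marks of fibroblasts activated by TGF-beta.

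The libraries held 247 and 248 IR cells and 358 and 367 UT cells. Total gene counts were 5736339 and 6186428 in IR and 5867961 and 6810079 in UT. Irradiated cells held more counts each, with medians of 20181 and 22036 per cell in IR against 15662 and 17627 in UT. The 1220 cells carried 376 distinct barcodes, and each pair of libraries shared between 173 and 350 of them, since the plates reuse a set of barcodes. The osteoblast-lineage markers COL1A1 (1704 to 2195 CPM in IR, 1572 to 2474 CPM in UT) and RUNX2 (27.6 and 29.4 CPM in IR, 22.9 and 27.0 CPM in UT) were present, whereas SP7 was at 0 in all libraries. The defining smooth muscle genes MYH11, DES and LMOD1 stayed under 1 CPM in every library. Of the other smooth muscle markers, SYNPO2 was under 1 CPM too, MYOCD had 0.171 and 0.157 CPM in IR, against 5.14 and 3.45 CPM in UT, and SMTN had 100.02 and 103 CPM in IR, against 87.1 and 63.4 CPM in UT.

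The DNA before the start sites of the members is shown because CArG boxes are where SRF binds. RefSeq windows on GRCh38.p14 existed for 7 of the 9 members, 13 windows in all, each covering 250 bases before and 50 bases after the start. TAGLN and MYL9 had none. A CArG box (CC, then 6 bases of A or T, then GG, read on both strands) occurred in the windows of 2 members, ACTG2 and RND3, and in 1.29% of all 35116 windows of the same length. With 1 of the 6 inner bases allowed to be G or C, ACTA2 and CALD1 were added, and 6.94% of all windows held such a match. The letters CATTCC, the core to which TEAD factors bind, were in 14.0% of all windows, and TATAAA was in 11.5%. The pair of p53 half-sites searched was found in no member window, nor in any window of the p53 target FAS, and in 0.0285% of all windows. With a pattern this rare, its absence says nothing about p53 binding at the members. The 250 bases before 3 starts are printed 5′ to 3′ on the strand of the gene, with CArG matches in capitals; the matches of ACTA2 carry 1 inner G or C each.
ACTA2, chr10:88952774-88953023, minus strand: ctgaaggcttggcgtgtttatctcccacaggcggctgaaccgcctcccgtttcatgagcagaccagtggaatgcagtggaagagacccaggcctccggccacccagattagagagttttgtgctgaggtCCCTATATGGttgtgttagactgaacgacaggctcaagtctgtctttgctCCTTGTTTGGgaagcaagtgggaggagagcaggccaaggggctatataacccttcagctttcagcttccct
ACTG2, chr2:73892758-73893007, plus strand: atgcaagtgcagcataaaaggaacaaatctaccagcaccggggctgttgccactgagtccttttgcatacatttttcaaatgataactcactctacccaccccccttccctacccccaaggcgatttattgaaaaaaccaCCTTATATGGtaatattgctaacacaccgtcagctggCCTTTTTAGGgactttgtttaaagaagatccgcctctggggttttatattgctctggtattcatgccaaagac
RND3, chr2:150487668-150487917, minus strand: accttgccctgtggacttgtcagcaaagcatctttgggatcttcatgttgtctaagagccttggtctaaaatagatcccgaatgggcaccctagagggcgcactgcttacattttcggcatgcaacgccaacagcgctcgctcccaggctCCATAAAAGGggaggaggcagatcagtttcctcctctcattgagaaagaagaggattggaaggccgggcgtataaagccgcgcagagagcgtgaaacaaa
The ACTA2 matches lay 121 to 112 and 71 to 62 bases before the start, those of ACTG2 110 to 101 and 73 to 64 bases before, and that of RND3 100 to 91 bases before. TATAAA, read on both strands, lay 31 to 26 bases before the start of ACTG2, 30 to 25 bases before that of RND3 and 233 to 228 bases before a start of CALD1. The printed ACTA2 sequence holds ctatataa, which this search did not count. CATTCC, read on both strands, lay 183 to 178 bases before the ACTA2 start. It also lay 194 to 189 and 42 to 37 bases before separate starts of CALD1. A second ACTA2 start at position 88991337, which lies beside the starts of FAS, had no CArG match, nor did any window of CNN1, TPM1 or TPM2. Such matches are descriptions of letters, and 3′ counts do not show which start a transcript used.

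Of the 9 genes, 8 had enough counts to be tested, and 2 of them were called higher in IR, ACTA2 and RND3. Those called lower were 0 by edgeR and 0 by DESeq2, and TPM1 had an unadjusted p of 0.0118. Among all genes tested, 1.63% were called higher and 0.847% lower. The median log2 ratio of IR over UT was 0.47 over the 8 genes and 0.00 over all genes, and 6 of the 8 genes were higher in IR in both experiments, as were 5209 of the 14647 genes tested. When the fit took the experiment as a block, 5 members were called higher (ACTA2, TAGLN, MYL9, TPM2 and RND3) and TPM1 lower, where 14.3% of all genes were called higher and 12.9% lower. Leaving out the first IR library left ACTA2 as the one member called. A 3′ method tags each molecule once, so levels are not scaled by gene length. By mean CPM the order in IR was TPM1, TPM2, CALD1, RND3, MYL9, ACTA2, TAGLN and CNN1, and in UT it was TPM1, TPM2, CALD1, RND3, MYL9, CNN1, ACTA2 and TAGLN. In IR the levels of TPM1 and TPM2 overlapped between libraries, as did those of CALD1 and RND3 and those of TAGLN and CNN1. In UT, CNN1, ACTA2 and TAGLN could not be ordered beyond their spread, and RND3 fell within the range of MYL9.

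**Figure D1:**
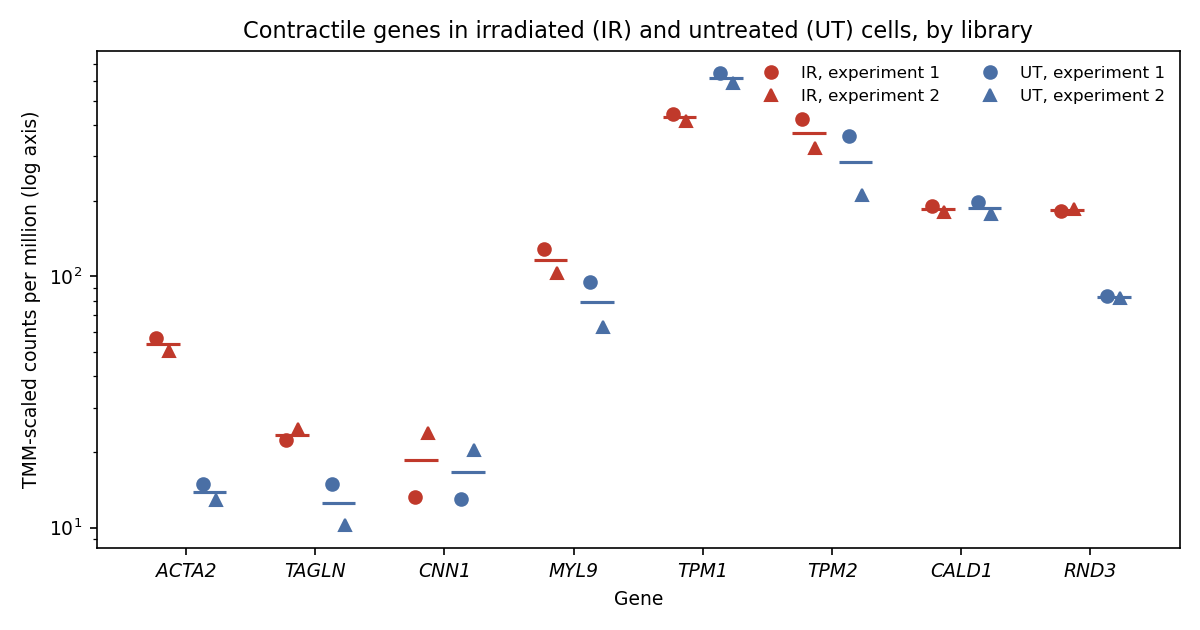
TMM-scaled CPM (log axis) of the 8 detected contractile genes in each library. Circles are experiment 1, triangles experiment 2, and lines are means of 2 libraries, with IR in red and UT in blue. The IR and UT points are furthest apart for ACTA2 and RND3, lie apart for TAGLN, MYL9 and TPM1, and overlap for CNN1, TPM2 and CALD1.

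ACTA2 encodes alpha smooth muscle actin. It had 56.9 and 50.4 CPM in the IR libraries, against 14.9 and 12.9 CPM in the UT libraries. Both IR libraries lay well above both UT libraries, and the log2 ratio was 1.93 in experiment 1 and 1.96 in experiment 2. The means were 53.6 ± 4.58 CPM in IR and 13.9 ± 1.40 CPM in UT (SD, n = 2 each), a 3.86-fold difference (log2 1.95, SE 0.18, adjusted p = 0.0152 by edgeR). ACTA2 was called with each library left out in turn, with log2 ratios of 1.85 to 2.05 and adjusted p-values of 0.00677 to 0.0201. The counts behind these values were small, with 332 and 321 in IR and 84 and 86 in UT.

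ACTG2, which encodes gamma smooth muscle actin, had 0 counts in all 1220 cells, which allows a share of cells with a UMI of up to 0.246% (counting error only). This is the member with a pair of CArG boxes before its start (above). TAGLN, the actin-binding transgelin also called SM22, had 22.3 and 24.6 CPM in IR, against 14.9 and 10.2 CPM in UT. The groups did not overlap, but the log2 ratio was 0.58 in experiment 1 and 1.27 in experiment 2. The log2 ratio of 0.91 (SE 0.24) did not pass edgeR's test (adjusted p = 0.107), and passed with the experiment as a block (adjusted p = 5.80e-05). It was also called without the filter on low counts (adjusted p = 0.0121).

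CNN1, the smooth muscle calponin, had 13.2 and 23.9 CPM in IR, against 12.9 and 20.3 CPM in UT. The groups overlapped, and both experiment 2 libraries were above both experiment 1 libraries. The log2 ratio was 0.15 (SE 0.34, adjusted p = 0.873 by edgeR), and it ran from -0.34 to 0.52 when single libraries were left out. MYL9, the regulatory light chain that myosin light chain kinase phosphorylates, had 128 and 103 CPM in IR, against 95.2 and 62.8 CPM in UT. Its groups did not overlap, and experiment 1 was the higher in each group. The log2 ratio of 0.55 (SE 0.23) did not pass edgeR's test (adjusted p = 0.270), and passed with the block (adjusted p = 1.42e-05).

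TPM1 and TPM2 encode tropomyosins, which lie along the actin filament. TPM1, the most abundant member, had 443 and 417 CPM in IR, against 642 and 590.0 CPM in UT. Both IR libraries were below both UT libraries. The log2 ratio of -0.52 (SE 0.15) did not pass edgeR's test (adjusted p = 0.132), passed with the block (adjusted p = 8.54e-07), and turned to 0.22 under spike-in scaling. TPM2 had 421 and 325 CPM in IR, against 361 and 211 CPM in UT. Its groups overlapped, since experiment 1 was far higher than experiment 2 in each group, while IR was the higher within both experiments (log2 0.22 and 0.62). The fitted log2 ratio was 0.38 (SE 0.27, adjusted p = 0.522 by edgeR), and the blocked call was positive (adjusted p = 0.000235).

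CALD1 encodes caldesmon, an inhibitor of actin-activated myosin ATPase. It had 189.8 and 179.7 CPM in IR, against 198 and 177 CPM in UT. The groups overlapped, and the log2 ratio of -0.02 (SE 0.15, adjusted p = 0.967 by edgeR) was not called with the block either (adjusted p = 0.913). Its sign changed when the second IR or the first UT library was left out.

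RND3 encodes a small GTP-binding protein that inhibits ROCK1 and loosens stress fibres. It had 182 and 186 CPM in IR, against 83.4 and 82.2 CPM in UT. The libraries of each group nearly coincided, and the groups were far apart. The means were 183.8 ± 3.15 CPM in IR and 82.8 ± 0.849 CPM in UT (SD, n = 2 each), a 2.22-fold difference (log2 1.15, SE 0.14, adjusted p = 0.0203 by edgeR). Without the first IR library the log2 ratio was 1.16 and the adjusted p was 0.0523, above the threshold of 0.05.

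CPM are shares of a library, and IR cells held more counts each, so the same genes were also expressed per cell. ACTA2 averaged 1.34 and 1.29 counts per cell in IR, against 0.235 and 0.234 in UT, log2 ratios of 2.52 and 2.47. RND3 averaged 4.29 and 4.78 counts per cell in IR, against 1.31 and 1.49 in UT. TPM1 averaged 10.5 and 10.7 counts per cell in IR, against 10.1 and 10.7 in UT, so the lower share of the library was not a lower count per cell. Relative to spike-in counts the TPM1 log2 ratio was 0.28 in experiment 1 and -0.08 in experiment 2, and that of CALD1 was 0.76 and 0.45. The spike-in share itself differed widely between experiments, at 0.191% and 0.952% in IR, against 0.318% and 1.21% in UT. The number of RNA molecules per cell and the efficiency of capture cannot be told apart in these values.

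**Figure D2:**
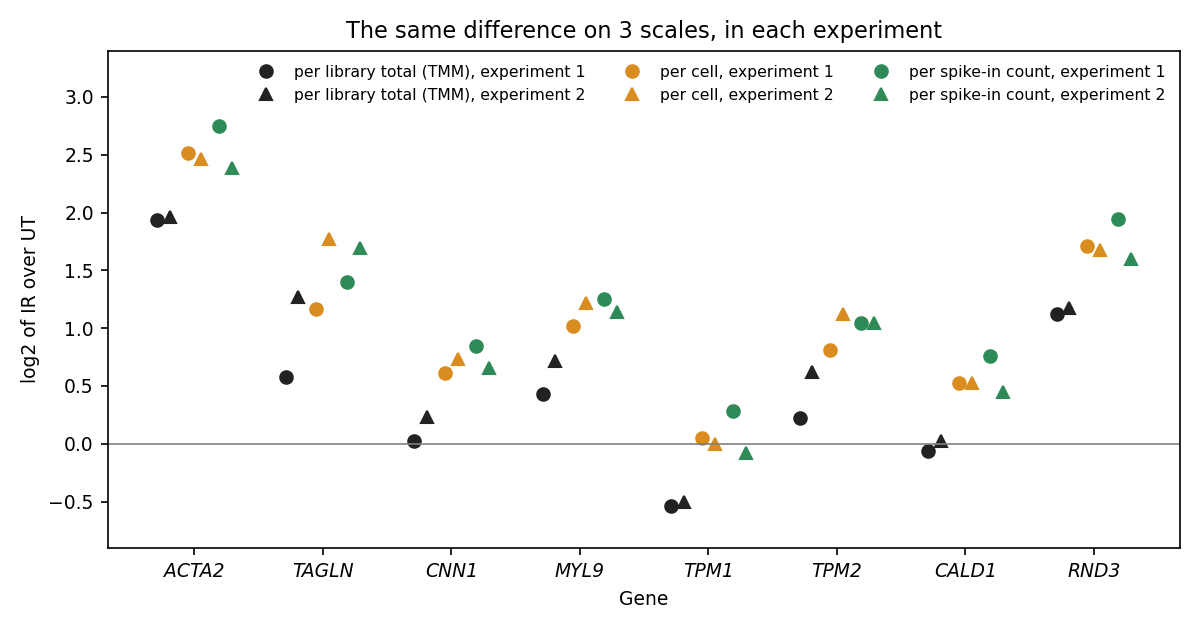
The log2 ratio of IR over UT for each member in experiment 1 (circles) and experiment 2 (triangles), on 3 scales: per library total (black), per cell (orange) and per spike-in count (green). ACTA2 and RND3 are above 1 on all of them, TPM1 is below 0 per library total and near 0 on the other scales, and the other members are higher per cell than per library total.

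Differences in depth were removed for the cell-level values by thinning every cell to 8000 UMIs, which kept 231 and 232 IR cells and 333 and 356 UT cells. An ACTA2 UMI was found in 35.9% and 29.3% of IR cells, against 9.01% and 8.15% of UT cells. Before thinning the shares were 55.9% and 52.4% in IR, against 14.0% and 14.7% in UT. The IR shares were thus higher with and without the depth difference, and few cells carried many UMIs: 2.16% and 2.59% of IR cells had 3 or more, against 0.601% and 0.281% of UT cells. RND3 was found in 61.0% and 63.4% of thinned IR cells, against 35.4% and 39.0% of UT cells, and 19.9% and 20.3% of IR cells held 3 or more UMIs, against 6.31% and 5.06% of UT cells. TAGLN was found in 13.9% and 18.1% of IR cells, against 10.8% and 6.18% of UT cells. MYL9 was found in 63.6% and 53% of IR cells, against 49.2% and 40.2% of UT cells. TPM1 was present in nearly every cell, at 92.2% and 89.7% in IR and 95.5% and 93.0% in UT, and TPM2 in 74.7% to 95.7% of the cells of a library.

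**Figure D3:**
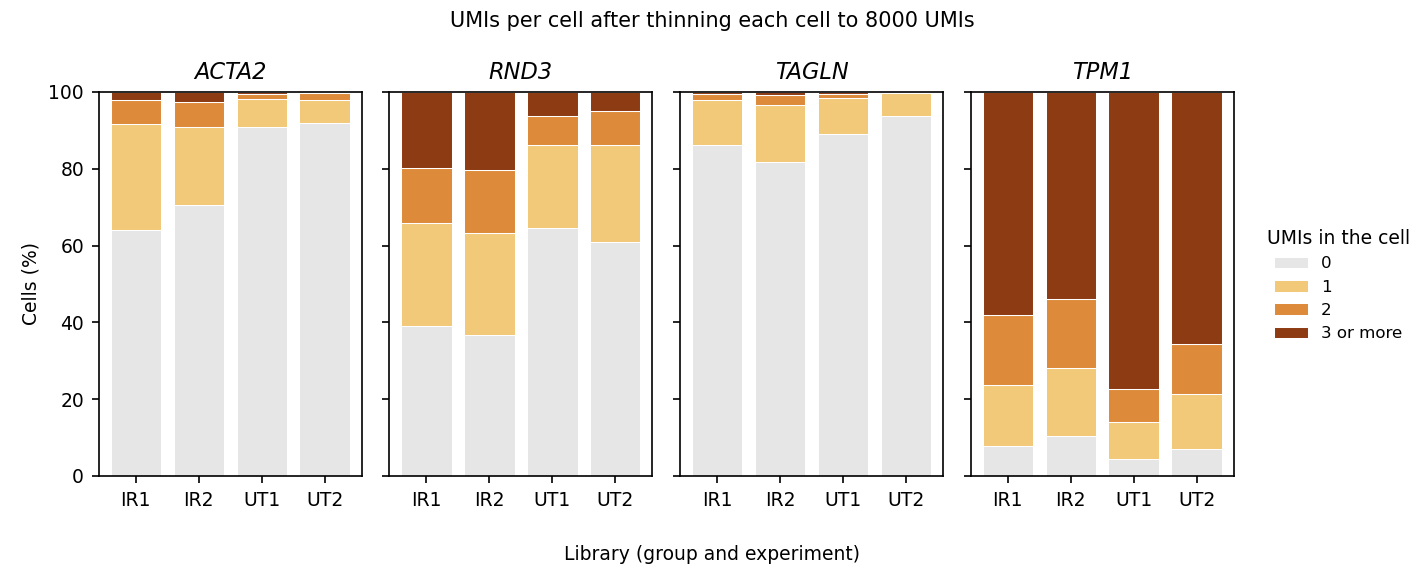
Share of cells (%) with 0, 1, 2 or 3 and more UMIs of ACTA2, RND3, TAGLN and TPM1 in each library, after each cell was thinned to 8000 UMIs. Cells with an ACTA2 or RND3 UMI make up a larger share of both IR libraries than of both UT libraries, whereas TPM1 has fewer cells at 3 or more in IR.

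The spread of ACTA2 between cells, as the SD over the mean (CV), was 1.58 and 1.84 in IR, against 3.64 and 3.65 in UT. The difference between group means was -1.94. Counts of independent molecules at the same means would give 1.46 and 1.55 in IR, against 2.92 and 3.10 in UT, so the measured CV exceeded that of pure counting in each library. Set against a line of log2 SD on log2 mean over all genes, the residual of ACTA2 lay at the 53.5th and 85.9th percentile in IR, against the 97.1st and 95.7th in UT. The lower IR values depended on the depth: at 5000 UMIs the percentiles were 84.3 and 94.0 in IR, against 97.4 and 98.4 in UT, and in unthinned scaled counts they were 84.1 and 93.6 in IR, against 97.3 and 98.2 in UT. RND3 was among the most uneven genes for its level, at the 98.8th and 98.1st percentile in IR, against the 97.5th and 93.8th in UT, with up to 13 UMIs in a single IR cell of each library, against 6 and 5 in UT. TPM1 was likewise uneven, at the 97.4th and 97.6th percentile in IR, against the 98.9th and 99.1st in UT. TPM2 ranged from the 12.8th to the 72.0th percentile across libraries. With 2 libraries a group, no test of spread was made.

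FAS encodes the Fas death receptor and is a p53 target. The annotated spans of ACTA2 (chr10:88935074-88991339, minus strand) and FAS (chr10:88953813-89029605, plus strand) overlap by 37.5 kb on opposite strands. Their 3′ ends lie 94.5 kb apart. This overlap counts ACTA2 from its second start at position 88991337. An ACTA2 transcript from the printed start, at position 88952773, would lie outside the FAS span, and which start was used is not known. FAS had 74.2 and 71.1 CPM in IR, against 16.8 and 25.1 CPM in UT (log2 1.79, SE 0.22, adjusted p = 0.02 by edgeR). Across thinned cells, Spearman's coefficient between ACTA2 and FAS was 0.084 and 0.085 in IR, against 0.079 and 0.10 in UT, over 231, 232, 333 and 356 cells that share a library and a fixed depth. Among 8277 genes detected in at least 10% of thinned cells of every library, FAS ranked at the 86.5th and 86.9th percentile in IR, against the 88.4th and 93.5th in UT. These are weak correlations of sparse counts, and no conclusion is drawn from them. In cells with a FAS UMI, ACTA2 was found in 40.6% (95% exact interval 30.7 to 51.1) and 32.3% (23.1 to 42.6) of IR cells, and in 15% (5.71 to 29.8) and 14.5% (6.50 to 26.7) of UT cells. In cells with none, it was found in 32.6% (24.8 to 41.2) and 27.2% (19.9 to 35.5) of IR cells, and in 8.19% (5.32 to 11.9) and 6.98% (4.37 to 10.5) of UT cells. The intervals overlapped in every library, with the higher share in cells with a FAS UMI, and the difference was not tested. With cells thinned to 5000 UMIs the coefficients were -0.14 and 0.064 in IR, against 0.11 and 0.11 in UT. In unthinned counts scaled to 10000 per cell, where cells differ in depth, they were 0.10 and 0.21 in IR, against 0.22 and 0.15 in UT.

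Other partners were set beside FAS. CDKN1A, the p21 inhibitor of cyclin-dependent kinases, gave a coefficient with ACTA2 of 0.16 and 0.12 in IR, against 0.29 and 0.30 in UT, and was the highest of the 8277 genes in both UT libraries. There, 27 of 30 and 26 of 29 cells with an ACTA2 UMI also held a CDKN1A UMI, which was present in 220 of 333 and 228 of 356 cells. MKI67, a proliferation marker, gave -0.15 and -0.15 in IR, against -0.19 and -0.22 in UT. RND3 with MKI67 gave -0.25 and -0.24 in IR, against -0.07 and -0.06 in UT. The genes whose lowest coefficient with ACTA2 over the 4 libraries was highest were the nuclear RNAs MALAT1 (0.23) and NEAT1 (0.16), the growth factor gene GRN (0.17), RRM2B (0.16), which encodes a p53-induced ribonucleotide reductase subunit, and CYFIP2 (0.16). For TAGLN they were SLC35B3 (0.11), RAB1B (0.07) and TRIML2 (0.07). Among the 28 pairs of members, the coefficient ran from -0.14 to 0.21, with 5 pairs positive in all 4 libraries and 0 pairs over 0.1 in all of them.

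**Figure D4:**
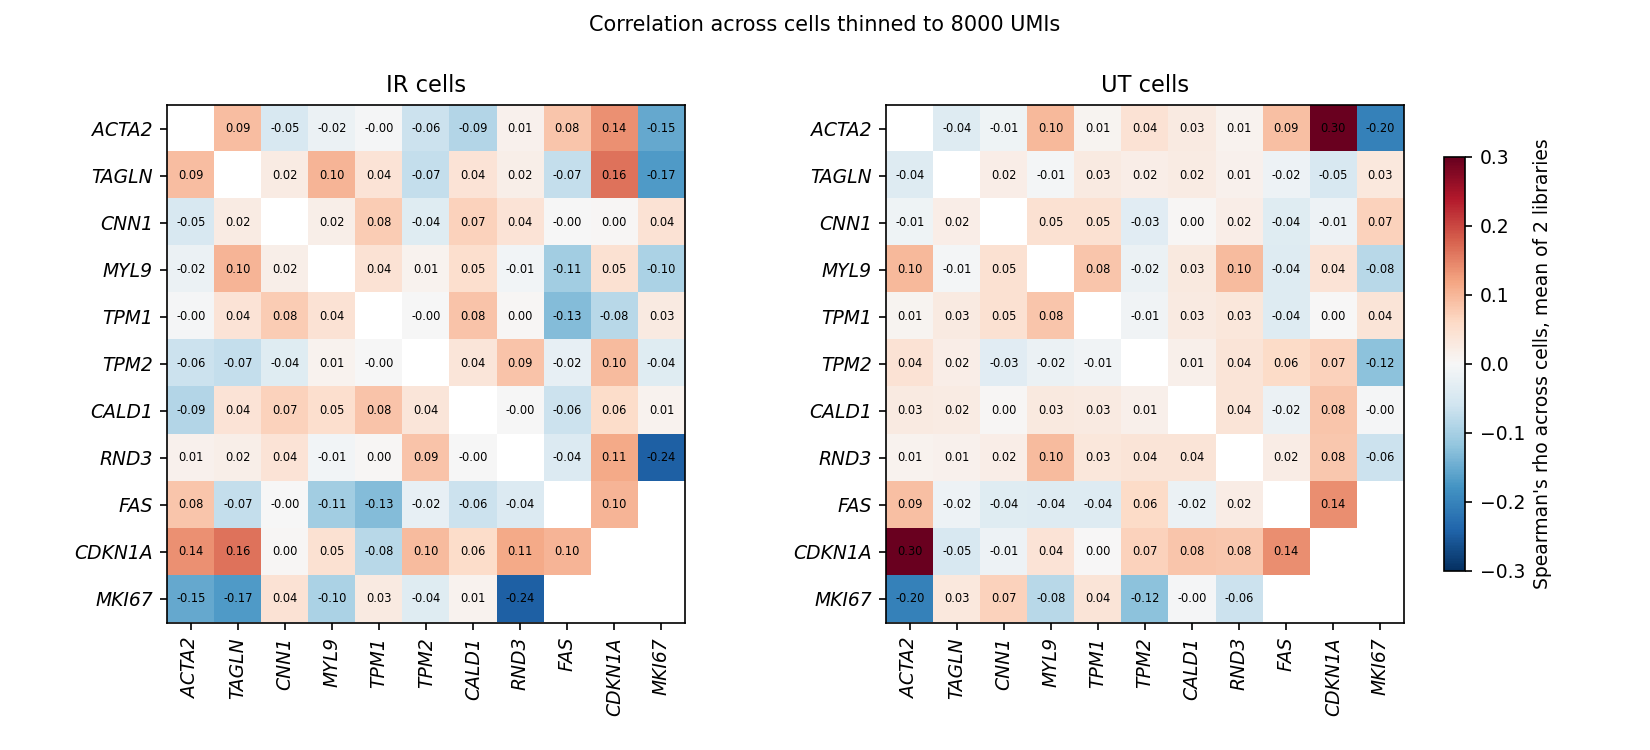
Spearman's coefficient across cells thinned to 8000 UMIs, as the mean of 2 libraries, in IR cells (left) and UT cells (right), for the 8 detected members with FAS, CDKN1A and MKI67. Red is positive and blue negative, the scale stops at 0.3, and the diagonal and the pairs of MKI67 with FAS and CDKN1A, which were not computed, are blank. Most squares are pale, and the strongest are ACTA2 with CDKN1A in UT and RND3 with MKI67 in IR.

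The files list 21 genes within 500 kb of ACTA2 besides itself, a window chosen after the annotation was seen, and 10 of them were tested. Called higher in IR were FAS and the interferon-induced genes IFIT2, IFIT3 and IFIT1, and SLC16A12, a monocarboxylate transporter family member. IFIT3 had 105 and 154 CPM in IR, against 22 and 18.9 CPM in UT (log2 2.66, SE 0.24, adjusted p = 0.0137 by edgeR). IFIT2 had a log2 ratio of 2.61 and IFIT1 of 2.03. SLC16A12 had 6.34 and 4.24 CPM in IR, against 0.887 and 0.901 CPM in UT (log2 2.53, adjusted p = 0.0412 by edgeR), and its call was lost in each fit that left out a library (adjusted p of 0.0515 to 0.185) and by DESeq2 (0.0584). LIPA, which encodes lysosomal acid lipase, was at 0.77 (adjusted p = 0.0814 by edgeR, and 1.57e-07 with the block). IFIT5 (0.16), RNLS (-0.29, and positive under spike-in scaling) and STAMBPL1 (0.07) were not called. STAMBPL1 covers the 3′ end of ACTA2 on the opposite strand, at 23.8 and 28.4 CPM in IR, against 25.0 and 24.6 CPM in UT. ACTA2-AS1 covers it too, with 1 and 0 counts in IR and 1 and 0 counts in UT. The study's methods leave out intronic reads and reads that fall on more than 1 gene. The strand setting is not given, so it cannot be told whether reads from the opposite strand were counted for a gene. The lncRNA AL157394.3, which spans the FAS starts and the second ACTA2 start, had 19 and 13 counts in IR, against 0 and 7 in UT (adjusted p = 0.259 by edgeR, and 0.00898 with the block). On the opposite strand of the 3′ end of TAGLN lies PCSK7, at a log2 ratio of 0.48.

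**Figure D5:**
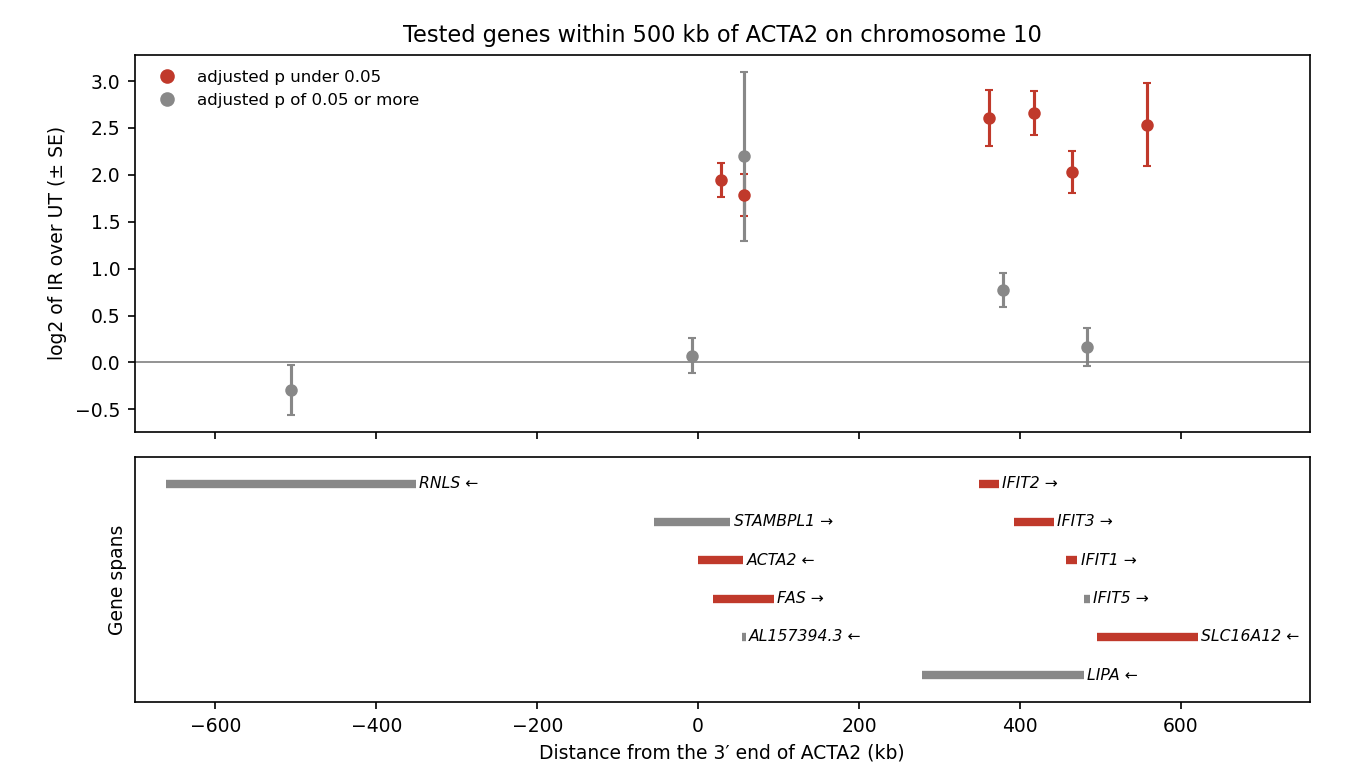
Top, log2 ratio of IR over UT (± SE, fit over 4 libraries) of ACTA2 and the 10 tested genes within 500 kb of it, placed at the middle of each gene; bottom, gene spans, with arrows for the direction of transcription. The x axis is the distance in kb from the 3′ end of ACTA2, and red marks adjusted p under 0.05. The annotated spans of ACTA2 and FAS overlap, the IFIT genes and SLC16A12 lie over 292 kb away, and genes not called, such as STAMBPL1 and IFIT5, stand among them.

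Other genes of the contractile pathways, and p53 targets, were read from 8 lists with 128 tested genes in all. Among all genes tested, 1.63% were called higher and 0.847% lower, or 14.3% and 12.9% with the block. Of the listed genes, 20 were called higher, 14 of them p53 targets, and 1 lower. With the block, 46 were called higher, 27 of them p53 targets, and 20 lower. When single libraries were left out the number called was 12 to 15. Of 6 other actin and actin-related genes, the latter being ACTR2 and ACTR3, ACTBL2, a beta-actin-like gene, was called higher. It had 4.45 and 4.71 CPM in IR, against 0.709 and 1.05 CPM in UT (adjusted p = 0.0461 by edgeR). ACTBL2 was no longer called when any library was left out, or by DESeq2 (adjusted p = 0.123). The cytoplasmic actins made up most of the actin counts. ACTB had 3161 and 2918 CPM in IR, against 5294 and 4386 CPM in UT (log2 -0.67, adjusted p = 0.102 by edgeR, and 1.03e-10 with the block), and ACTG1 had a log2 ratio of -0.46. Under spike-in scaling these became 0.03 and 0.16. Both genes were marked as near the ceiling of counts per cell, here a mean of at least 20 counts per cell in any library. Of 9 tropomyosin, calponin, transgelin and caldesmon relatives, a list that includes troponins, 0 were called by edgeR and 0 by DESeq2. With the block, 0 were called higher and 2 lower. Without it 1, the troponin TNNT1, had an unadjusted p under 0.05. Their median log2 ratio was -0.16.

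Of 18 genes of myosin II and its regulation, MYLK was called higher. MYLK encodes myosin light chain kinase, and had 134 and 94.7 CPM in IR, against 33.5 and 37.9 CPM in UT (log2 1.67, SE 0.21, adjusted p = 0.0204 by edgeR). Both IR libraries lay above both UT libraries, and it was called whichever library was left out. The heavy chain MYH9 (0.22) and the kinases ROCK1 (-0.18) and ROCK2 (-0.07) were not called without the block. With it, 5 genes of this list were called higher, MYH9 among them (adjusted p = 0.0479 by edgeR), and 4 lower. Of all genes tested, 14.3% were called higher with the block and 12.9% lower.

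Of 24 SRF and MRTF factors and targets, FHL2 and LIMA1 were called higher, with a list median of 0.09. With the block, 5 were called higher and 3 lower, against 14.3% and 12.9% of all genes tested. FHL2, a LIM domain cofactor, had 429 and 436 CPM in IR, against 213 and 222 CPM in UT (log2 0.99, adjusted p = 0.0293 by edgeR), and adjusted p-values of 0.0716 to 0.102 with a library left out. LIMA1, an actin-bundling protein also called EPLIN, had 202 and 151 CPM in IR, against 79.3 and 64.9 CPM in UT (log2 1.29, adjusted p = 0.0326 by edgeR), and missed the threshold without the first IR library (0.0937) or the second UT library (0.0545), and after thinning (0.0538). SRF itself was at -0.07, MRTFA at -0.08 and MRTFB at -0.49, none of them called without the block. With the block, MRTFB was called lower (adjusted p = 0.00113 by edgeR), and SRF (0.739) and MRTFA (0.793) were not called. Of 21 TGF-beta genes, 2 were called higher, INHBA among them. With the block, 6 were called higher and 3 lower, against the same 14.3% and 12.9% of all genes. INHBA, the activin A subunit, had a log2 ratio of 0.89 (adjusted p = 0.0392 by edgeR), and 0.0799 to 0.174 with a library left out. CCN2, a TGF-beta and YAP target, was at -0.05.

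Of 10 smooth muscle defining genes, 3 were tested and 1, MYOCD, was called lower. With the block, 1 was called higher, SMTN (adjusted p = 0.0014 by edgeR), and 2 lower, MYOCD and HHIP. Over all genes tested the block called 14.3% higher and 12.9% lower. MYOCD encodes myocardin, and had 1 and 1 counts in IR, against 29 and 23 in UT (adjusted p = 0.0243 by edgeR). The ratio of IR over UT per gene count was 0.0409 (95% exact interval 0.00483 to 0.155, counting error only), and the call was lost without the first IR library (0.0699), the second IR library (0.0525) or the first UT library (0.0776). SMTN, the stress fibre protein smoothelin, made up nearly all of the summed smooth muscle markers, which came to 101 and 105 CPM in IR, against 94.7 and 68.0 CPM in UT. Their part in the contractile results was not tested. By contrast, of 27 p53 targets 14 were called higher and 0 lower (24 with an unadjusted p under 0.05, all higher), with a median of 1.04, and all 27 were called higher with the block. GDF15 had 147 and 173 CPM in IR, against 8.34 and 15.6 CPM in UT, and CDKN1A had 942 and 888 CPM in IR, against 337 and 284 CPM in UT (adjusted p = 0.0176 by edgeR). CDKN1A was also marked as near the ceiling, with means of 22.3 and 22.8 counts per cell in IR, against 5.31 and 5.15 in UT.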

How the data were processed

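Single-cell RNA libraries of U-2 OS cells, 2 irradiated (IR) and 2 untreated (UT), were made by SORT-seq, a plate method that labels the 3′ ends of mRNA with a cell barcode and a 6-base unique molecular identifier (UMI). The authors mapped reads to GRCh38 with STARsolo, and the submitters' notes name Seurat 5. How strand was handled and how barcodes were selected is not stated in the sources used here. The deposited values are expected counts, and not all are whole numbers. They were compared with the correction that turns observed UMIs into molecules when 4096 UMI sequences are possible. At least 99.8878% of each library's values lie on it once it is rounded to 3 significant digits (tolerance 1e-09). Small counts stay whole after that rounding, so they match with or without the correction and cannot tell. Larger values carry it, such as the highest in a cell of the first IR library for ACTA2 (8.01) and MYL9 (31.1). The design had assumed counts, so the deposited values were summed over the cells of each library and rounded. Spike-ins (92 listed) held between 0.191% and 1.21% of a library's counts and entered neither library sizes nor tests.

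IR and UT were compared with edgeR 4.0.16 in R 4.3.3 (TMM scaling, filterByExpr, robust quasi-likelihood F test, two-sided), with p-values adjusted by Benjamini-Hochberg over all 14647 genes tested and a threshold of 0.05. The script was tested on simulated counts. Levels are TMM-scaled CPM (counts scaled to a fixed library total). Experiment numbers pair the libraries, because the sample titles give them. IR and UT libraries of 1 experiment deviated together (r = 0.635 across genes), and the biological coefficient of variation of 0.177 became 0.0727 once the experiment was a block. The block left 1 residual degree of freedom. For values between cells, observed UMIs were recovered and each cell was thinned to 8000 of them (Python 3.11.15), and shallower cells were left out. Gene positions are those of GENCODE 44 on GRCh38, and windows before start sites are those of RefSeq.

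The members, the 8 gene lists and the tests were chosen with earlier results of these data known. Genes were named by a rule: the members, FAS, CDKN1A, MKI67, the annotated neighbours of ACTA2, up to 4 called genes of each list by p, and the genes whose lowest Spearman's coefficient with ACTA2 (5 genes) or TAGLN (3 genes) over the 4 libraries was highest. A gene that the rule names and a list are not reported here. Other genes in the text are list members or cell type markers given for context. Alternatives were DESeq2 1.42.0, no filter, the experiment block, each library left out, thinned counts, observed UMIs and spike-in scaling. A pair of further ones were added after the data were seen.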

Additional observations from a re-analysis of the deposited data

How the results depend on the processing

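ACTA2 kept its call in 11 of 12 alternatives and RND3 in 10 of 12, with log2 ratios of 1.85 to 2.69 and 1.13 to 1.88. Members called were 2 in the fit reported above, 1 or 2 with single libraries left out, 6 with the replicate block, 0 under spike-in scaling and 6 under spike-in scaling with the block. Those last 6 were all higher in IR, in a fit that called 5010 genes higher and 62 lower over the whole table. Genes called over the whole table were 363, against 111 to 234 with single libraries left out (111 without the first and 193 without the second IR library, 234 without the first and 208 without the second UT library), 3977 with the replicate block, 1513 without a filter, 198 after thinning, 0 under spike-in scaling by edgeR (17 with an unadjusted p under 0.05) and 5072 under spike-in scaling with the block. Genes called in the pathway lists were 21, against 12 to 15 with single libraries left out, 66 with the block, 34 without a filter, 0 under spike-in scaling (1 with an unadjusted p under 0.05) and 68 under spike-in scaling with the block.

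Spike-in scaling moved the median log2 ratio of all genes to 0.74, and to 0.61 with the block. TPM1 then turned to 0.22 and 0.10, CALD1 to 0.70 and 0.60, and RNLS to 0.46 and 0.33, each below that shift. With single libraries left out, CNN1 ran from -0.34 (without the second IR library) to 0.52, CALD1 from -0.099 to 0.060 (without the first UT library) and STAMBPL1 from -0.062 (without the second IR library) to 0.19; CNN1 was also -0.13 without the first UT library. The CV difference of ACTA2 was -1.94, -2.50 with cells thinned to 5000 UMIs, -1.76 when unthinned counts were scaled to 10000 per cell, and -2.07 to -1.81 with single libraries left out. Its mean Spearman coefficient with FAS was 0.087, 0.036 at 5000 UMIs, 0.17 unthinned, and 0.083 to 0.090 with single libraries left out. The cause of these shifts was not tested. The fits without 156 genes near the count ceiling and with spike-in scaling and the block together were added after the data were seen. Relative to the TMM-scaled fit without it, the block changed no call of ACTA2, RND3, CNN1 or CALD1. Relative to spike-in scaling without it, ACTA2 and RND3 were called again, and CNN1 was called higher (log2 0.74, adjusted p = 0.0456 by edgeR). The CNN1 ratio was near the median of all genes in that fit, 0.61.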
